A study of Bos taurus with 6 samples.

Results

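The endoplasmic reticulum (ER) folds, sorts and exports the proteins that a cell secretes, and 45 genes of this machinery were examined in bovine granulosa cells, the steroid-producing cells that line the ovarian follicle. They were taken by gene symbol as chaperones, disulfide isomerases, prolyl isomerases, stress sensors, degradation factors and translocon subunits. On the arrays, 44 of them were measured, each by 1 transcript cluster (a group of probes that reads 1 gene), among 19427 genes with 1 name and 24415 clusters in all. The remaining member, *ERN1*, which encodes the sensor IRE1α, was not analysed here. Primary granulosa cells, aspirated from small and medium-sized follicles and frozen before use, were kept for 4 days without serum and with FSH, IGF1 and androstenedione in every culture. On day 2, 3 cultures received 50 μM PD98059, an inhibitor of the kinase MEK that keeps ERK from being phosphorylated, and 3 cultures received DMSO, its vehicle, in both cases for 2 h, to ask which transcripts depend on ERK signaling. The published methods describe fresh medium without inhibitor after this step, whereas the sample labels describe a partial replacement, so whether some inhibitor remained is not settled. Each n is an independent cell culture, and because it is not stated whether the cultures came from shared or separate cell preparations, a p-value speaks only to the variation among these 6 cultures.

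When unfolded proteins accumulate in the ER lumen, the chaperone BiP leaves the luminal domains of 3 sensors, PERK, ATF6 and IRE1, and this sets off the unfolded protein response. PERK slows translation and favours the translation of the transcription factor ATF4, ATF6 is cut in the Golgi to free a transcription factor, and IRE1 splices the messenger RNA of *XBP1*. Their targets raise folding capacity and ER-associated degradation (ERAD), which returns misfolded proteins to the cytosol for the proteasome. Granulosa cells load this machinery with secreted inhibins, activins, follistatin and matrix proteins.

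The authors' normalized log2 values had medians of 4.69 to 4.74 on the 3 PD98059 arrays and of 4.68 to 4.70 on the 3 DMSO arrays. Across all clusters, Pearson's r was 0.9938 to 0.995 between arrays of 1 treatment and 0.9912 to 0.9921 between arrays of different treatments, each an r over genes, and genes of 1 array are not replicates. RMA brings the probe values of all arrays to a common distribution before the clusters are summarized, so a change common to most transcripts would be largely removed. A cluster was called when limma's Benjamini-Hochberg false discovery rate (FDR) over all clusters was under 0.05 and the fold above 1.4, and every log2 fold change is PD98059 minus DMSO with its standard error (SE). All 12 granulosa markers lay above the background level of log2 3.72, which was taken from olfactory receptor clusters. Of these markers 8 were called higher with PD98059, where 0.909% of all clusters were. Fits without 1 array called 5 to 7 of the markers, with 5 in that without the second PD98059 array. *CYP19A1*, the aromatase gene, had a log2 fold change of 2.01. All 7 oocyte and all 4 red cell markers measured were near background. Of 9 leukocyte markers 4 were, *PTPRC* among them, and 5 were above it, namely *CD68*, *CD14*, *CSF1R*, *CD163* and *CD3E*.

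A few named ER genes were lower with PD98059, and most of the set differed little. Of the 44 measured genes, 3 were called lower (6.82%, against 1.78% of all clusters called lower), namely *FKBP11* by 1.69-fold, *SYVN1* by 1.52-fold and *FKBP14* by 1.42-fold. None was called higher in limma or in an unmoderated test per cluster, where 0.909% of all clusters were called higher by limma, and at an unadjusted p under 0.05, 12 genes were lower and 3 higher, against 10.2% of all clusters lower and 9.47% higher. With the FDR alone, *DNAJB9* and *SELENOS* joined the lower side, giving 5 genes or 11.4% of the members, against 2.82% of all clusters, and none joined the higher side, where 1.72% of all clusters passed. These genes were chosen with earlier results of these arrays known, and the shares describe the list without a test of it. All 44 genes lay above background, whereas the shares of all clusters include clusters near it.

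Small differences leaned to the lower side. The median log2 fold change of the 44 genes was −0.10, and 33 genes were below 0 and 11 above, whereas the median of all clusters was 0.01, with 47.0% of them below 0. Among the 15296 clusters above background, the median was 0.00 and 49.9% were below 0. The values of the 3 PD98059 arrays lay wholly below those of the 3 DMSO arrays in 21 genes (47.7%, against 13.0% of all clusters) and wholly above them in 5 (12.6% of all clusters did so), and the groups overlapped in 18. Averaged over the 44 genes, the deviation from each gene's own mean was −0.02, −0.09 and −0.07 on PD98059 arrays 1 to 3, against 0.07, 0.04 and 0.08 on the DMSO arrays. For the 39 genes that did not pass the FDR, the median was −0.08 and the 95% confidence interval of the difference stayed within the 1.4-fold limit (log2 0.485) in 36. The exceptions were *XBP1*, *SEC61A1* and *DNAJC3*, whose intervals reached lower.

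**Figure D1:**
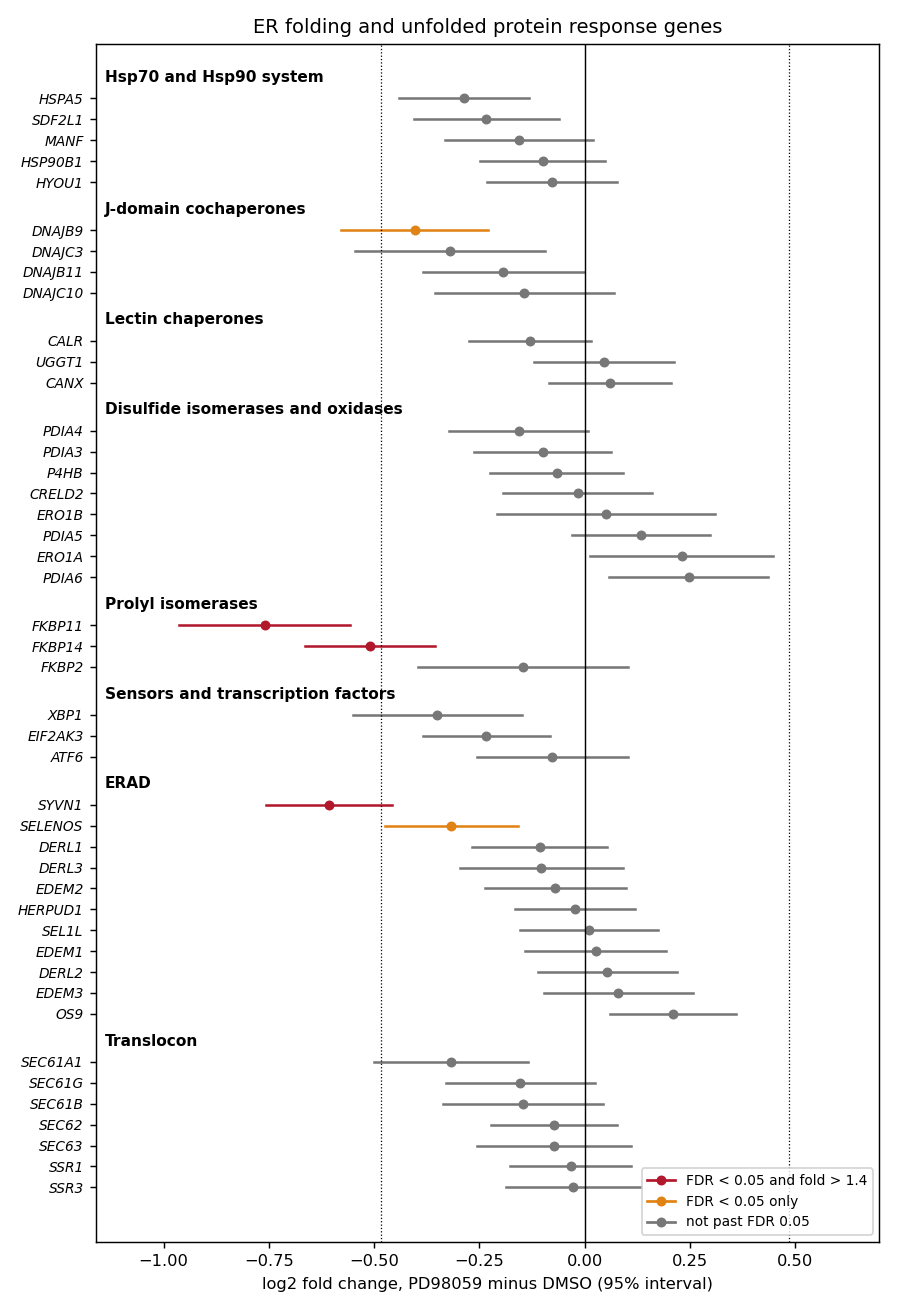
Log2 fold change (PD98059 minus DMSO, x axis) of each of the 44 measured ER genes, grouped by role, with bars for the 95% confidence interval and dotted lines at a fold of 1.4. The 3 red genes (*FKBP11*, *SYVN1*, *FKBP14*) were called lower, the 2 orange genes passed the FDR alone, and no gene lies to the right of 0.25.

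Neither the measured sensor genes, *EIF2AK3* and *ATF6*, nor the transcription factor gene *XBP1* passed the test. In 2 of these 3 genes the PD98059 values lay wholly below the DMSO values, as in 13.0% of all clusters. *EIF2AK3*, which encodes PERK, had log2 values of 8.09, 8.10 and 8.05 with PD98059, against 8.34, 8.26 and 8.34 with DMSO. Every PD98059 array was below every DMSO array, by a mean of −0.23 (SE 0.064, limma adjusted p = 0.102). *XBP1*, the transcription factor whose messenger RNA is the substrate of IRE1, had values of 9.98, 9.75 and 9.77 with PD98059, against 10.22, 10.13 and 10.20 with DMSO. Its groups did not overlap either, with the first PD98059 array nearest to the DMSO arrays (log2 fold change −0.35, SE 0.084, adjusted p = 0.0725, 95% interval −0.55 to −0.15). This cluster is listed for *XBP1* together with a second, unnamed locus, and 1 value per cluster cannot tell spliced from unspliced *XBP1*. *ATF6* had values of 9.15, 9.08 and 9.12 with PD98059, against 9.30, 9.10 and 9.18 with DMSO. The groups of *ATF6* overlapped, and its interval of −0.26 to 0.10 around −0.08 covered 0 (adjusted p = 0.640).

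The 5 genes of the Hsp70 and Hsp90 system all had log2 fold changes below 0, with a median of −0.16, and none passed the FDR in limma. At an unadjusted p under 0.05, 2 of them were lower, against 10.2% of all clusters. *HSPA5* encodes BiP, the luminal Hsp70 that binds unfolded chains and keeps the sensors quiet. Its log2 values were 11.66, 11.55 and 11.57 with PD98059, against 11.90, 11.86 and 11.88 with DMSO. The groups were apart with little spread among the DMSO arrays, and the log2 fold change of −0.29 (SE 0.065, 95% interval −0.44 to −0.13) just missed the FDR limit (adjusted p = 0.0610). It passed the FDR, at a fold under 1.4, in 5 alternative settings, among them a filter on dim clusters and the unmoderated test, and in none of the 6 fits that left out 1 array. *SDF2L1*, a partner of the BiP cycle, had −0.23 (adjusted p = 0.142) and *MANF*, a small ER protein that binds BiP, had −0.16 (adjusted p = 0.307), both with groups that did not overlap. *HSP90B1*, the ER Hsp90 known as GRP94, had −0.10 with its groups apart, and *HYOU1*, the exchange factor that helps BiP release its nucleotide, had −0.08 with overlap.

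J-domain proteins hand substrates to BiP and speed its ATP hydrolysis. All 4 had log2 fold changes below 0, with a median of −0.26, and 1 of them passed the FDR alone, against 2.82% of all clusters on the lower side. *DNAJB9*, also called ERdj4, had 6.44, 6.41 and 6.54 with PD98059, against 6.88, 6.93 and 6.79 with DMSO. Its groups were well apart, with a mean of 6.46 ± 0.068 in PD98059 cultures and of 6.87 ± 0.071 in DMSO cultures (SD, n = 3 each) and a log2 fold change of −0.40 (SE 0.073, adjusted p = 0.0318). The fold of 1.32 is under the 1.4 limit, and the FDR was missed when any 1 of the 6 arrays was left out, with adjusted p between 0.0679 and 0.118. With all 6 arrays, *DNAJB9* also missed it after repeated quantile normalization (limma adjusted p = 0.0528) and in the unmoderated test. *DNAJC3* (P58IPK) had −0.32 (adjusted p = 0.126) and *DNAJB11* (ERdj3) had −0.19 (adjusted p = 0.252), each with its PD98059 arrays below its DMSO arrays. *DNAJC10*, a reductase as well as a cochaperone, had 8.68, 8.54 and 8.79 with PD98059, against 8.90, 8.81 and 8.73 with DMSO. Here the third PD98059 array exceeded the third DMSO array, so the groups overlapped at a log2 fold change of −0.14 (adjusted p = 0.442).

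**Figure D2:**
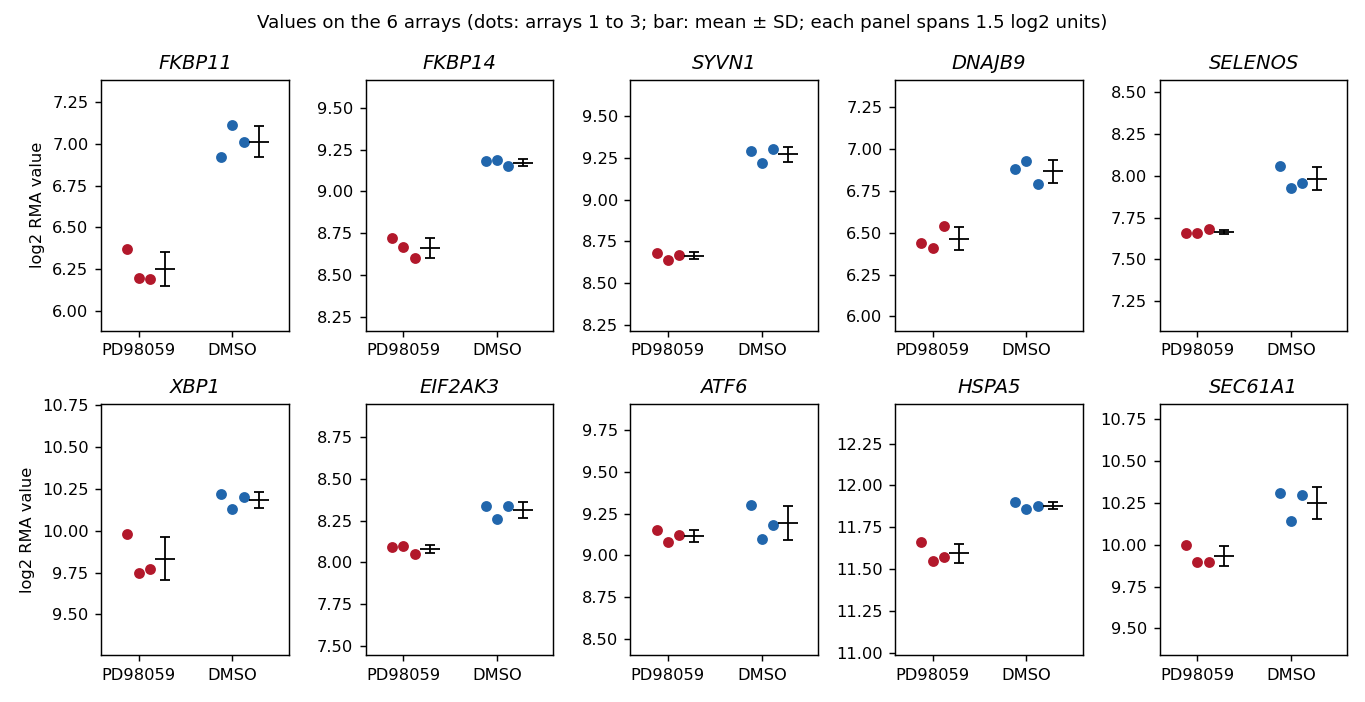
Log2 values of 10 ER genes on the 6 arrays, with 3 PD98059 cultures (red) left of 3 DMSO cultures (blue) and the mean ± SD beside each group, every panel spanning the same range of log2 units. The groups are apart in all panels but that of *ATF6*, and *FKBP11* has the largest mean difference of the 10.

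The calnexin and calreticulin cycle, which holds glycoproteins until they fold, showed no call and no unadjusted p under 0.05. *CANX*, the membrane-bound lectin chaperone, had 11.47, 11.44 and 11.47 with PD98059, against 11.42, 11.37 and 11.41 with DMSO. The PD98059 arrays were the higher ones, by a mean of 0.06 (adjusted p = 0.649), with an interval of −0.08 to 0.20. *CALR*, its soluble counterpart, had −0.13 (adjusted p = 0.302) with its PD98059 arrays below its DMSO arrays. *UGGT1*, the enzyme that tags unfolded glycoproteins for another round, had 0.05 with overlap.

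Among the 8 disulfide isomerases and oxidases, 4 log2 fold changes were above 0 and 4 below, the median was 0.02, and none passed the FDR in limma. *PDIA3*, the isomerase that works with the lectin chaperones, had 11.41, 11.28 and 11.28 with PD98059, against 11.45, 11.40 and 11.42 with DMSO. Its first PD98059 array lay within the DMSO range, and the log2 fold change was −0.10 (adjusted p = 0.485). The 2 genes of this group with an unadjusted p under 0.05 were both on the higher side (all clusters: 9.47%), and their values are shown for that reason. *PDIA6*, an isomerase that can act on the luminal domain of IRE1, had 7.22, 7.17 and 7.16 with PD98059, against 6.82, 6.94 and 7.05 with DMSO. *ERO1A*, the oxidase that recharges protein disulfide isomerase, had 7.27, 7.31 and 7.37 with PD98059, against 7.00, 7.00 and 7.26 with DMSO. In both genes every PD98059 array was above every DMSO array, and most of the spread was among the DMSO arrays (*PDIA6* 0.25, adjusted p = 0.152, and *ERO1A* 0.23, adjusted p = 0.233). *PDIA5* had 0.13, also with its groups apart, and *PDIA4* had −0.16 with its PD98059 arrays below its DMSO arrays (adjusted p = 0.278). The groups of *P4HB* (−0.07), the classical protein disulfide isomerase, of the second oxidase *ERO1B* (0.05) and of *CRELD2* (−0.02), a secreted ER protein with isomerase activity, overlapped.

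The prolyl isomerases carried 2 of the 3 calls, where 1.78% of all clusters were called lower. FKBP-type isomerases turn the peptide bonds before proline, a slow step in folding that matters most for collagens. *FKBP11* had log2 values of 6.37, 6.20 and 6.19 with PD98059, against 6.92, 7.11 and 7.01 with DMSO. The gap between the groups was wider than the spread within either, with means of 6.25 ± 0.10 in PD98059 cultures and 7.01 ± 0.095 in DMSO cultures (SD, n = 3 each), and *FKBP11* fell by 0.76 on the log2 scale (SE 0.085, 95% interval −0.96 to −0.56, limma adjusted p = 0.00682). The call was kept when any 1 array was left out, with adjusted p from 0.0202 to 0.0409. *FKBP14*, whose product acts on collagen in the ER, had 8.72, 8.67 and 8.60 with PD98059, against 9.18, 9.19 and 9.15 with DMSO. Its 3 DMSO values lay close together and all above the PD98059 values, and it fell by 0.51 (SE 0.065, 95% interval −0.67 to −0.35, adjusted p = 0.0106). This call sits near the fold limit. It was lost without the first DMSO array (adjusted p = 0.0576) and without the third PD98059 array (log2 fold change −0.48, adjusted p = 0.0468). The third member, *FKBP2*, had −0.15 with overlapping groups (adjusted p = 0.501).

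In ERAD, 1 gene, that of a ubiquitin ligase, was called lower and none higher in limma or in the unmoderated test. Of all clusters, limma called 1.78% lower and 0.909% higher. Of the 11 genes, 6 had log2 fold changes below 0 and 5 above, with a median of −0.02. *SYVN1* encodes HRD1, the ligase at the centre of the main ERAD complex. It had 8.68, 8.64 and 8.67 with PD98059, against 9.29, 9.22 and 9.30 with DMSO. Each group spanned far less than the distance between them, at means of 8.66 ± 0.021 in PD98059 cultures and 9.27 ± 0.044 in DMSO cultures (SD, n = 3 each), and *SYVN1* fell by 0.61 (SE 0.063, 95% interval −0.76 to −0.46, adjusted p = 0.00539). This call was kept without any 1 array, with adjusted p from 0.0248 to 0.0359. *SEL1L*, the adaptor that holds the ligase in its complex, had a log2 fold change of 0.01 with an interval of −0.15 to 0.17. *HERPUD1*, another partner of the ligase, had −0.02 with an interval of −0.17 to 0.12. The difference between *SYVN1* and these partners was not tested.

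*SELENOS*, a selenoprotein of the ER membrane that links the complex to the ATPase p97 and is listed under its older symbol *VIMP*, had 7.66, 7.66 and 7.68 with PD98059, against 8.06, 7.93 and 7.96 with DMSO. The PD98059 values were nearly identical and all below the DMSO values, and the log2 fold change of −0.32 (SE 0.066) passed the FDR by a small margin (adjusted p = 0.0492) at a fold of 1.25. Without any 1 array it missed the FDR, with adjusted p from 0.0951 to 0.157. *OS9*, a lectin that delivers glycoproteins to the ligase, had its higher values in the other group, 8.89, 8.97 and 8.97 with PD98059, against 8.71, 8.75 and 8.74 with DMSO. It is the ERAD gene with a positive difference whose groups did not overlap (0.21, SE 0.063, adjusted p = 0.130), and it passed the FDR in 1 alternative, a variance trend. *DERL1*, a channel protein of the complex, had 10.52, 10.49 and 10.59 with PD98059, against 10.70, 10.61 and 10.61 with DMSO. Its groups were narrowly apart (−0.11, adjusted p = 0.447). *DERL2* (0.05), *DERL3* (−0.10) and the mannosidase-like *EDEM1* (0.03), *EDEM2* (−0.07) and *EDEM3* (0.08), which mark glycoproteins for disposal, all had overlapping groups. *DERL3* was dim, at a mean of 4.37 in PD98059 cultures and 4.47 in DMSO cultures, yet above background, as was every member.

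**Figure D3:**
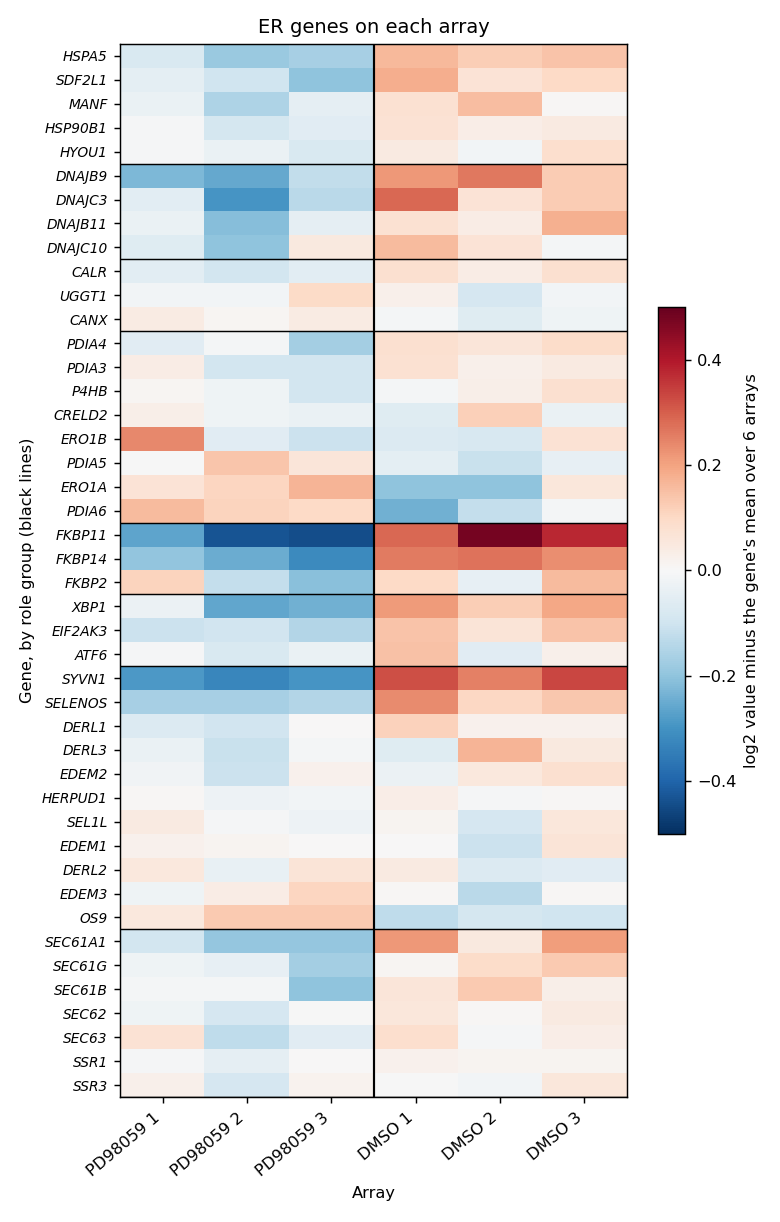
Log2 value of each ER gene on each array minus that gene's mean over the 6 arrays (colour, blue below and red above the mean), with the PD98059 arrays left of the DMSO arrays and black lines between role groups. The bands of *FKBP11*, *FKBP14* and *SYVN1* are strong on all 6 arrays, *OS9*, *PDIA6* and *ERO1A* run the other way, and the first PD98059 array is paler than the other PD98059 arrays for *HSPA5* and *XBP1*.

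The translocon, through which new chains enter the ER, had 7 of 7 log2 fold changes below 0, with a median of −0.07, and no call. At an unadjusted p under 0.05, 1 gene was lower, against 10.2% of all clusters. *SEC61A1* encodes the subunit that forms the channel. It had 10.00, 9.90 and 9.90 with PD98059, against 10.31, 10.14 and 10.30 with DMSO. The groups were apart, the second DMSO array being the lowest of its group, at −0.32 (SE 0.077, 95% interval −0.50 to −0.13, adjusted p = 0.0745). The small subunits *SEC61B* (−0.15, adjusted p = 0.378) and *SEC61G* (−0.15, adjusted p = 0.321) and *SEC62* (−0.07) also had their PD98059 arrays below their DMSO arrays. *SSR1*, a subunit of the translocon-associated protein complex, had 10.19, 10.15 and 10.20 with PD98059, against 10.22, 10.21 and 10.21 with DMSO. That separation of its groups rests on a difference of −0.03 with an interval of −0.18 to 0.11 (adjusted p = 0.812). *SSR3* (−0.03) and *SEC63* (−0.07) overlapped.

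Other genes of the response were counted from lists that do not hold any of the 45 members. Like the marker lists, they were chosen with earlier results of these arrays known, and their shares describe them without a test. In the PERK arm, genes that act with or around ATF4 and CHOP, 7 of 14 measured genes were called lower and none higher (all clusters: 1.78% lower and 0.909% higher), the median was −0.53, and none was higher at an unadjusted p under 0.05 or in the unmoderated test. *DDIT3*, which encodes the stress factor CHOP, had 6.88, 6.77 and 6.69 with PD98059, against 7.68, 7.52 and 7.62 with DMSO, and fell by 0.83 on the log2 scale (SE 0.081, adjusted p = 0.00477). *TRIB3*, a pseudokinase target of ATF4 and CHOP, had 4.56, 4.40 and 4.70 with PD98059, against 6.11, 6.01 and 5.92 with DMSO, and fell by 1.46. *CHAC1*, which degrades glutathione, fell by 1.33, *SESN2*, a stress-induced regulator of mTORC1, by 0.87 and *ASNS*, the asparagine synthetase gene, by 0.77, and these 5 calls were kept when any 1 array was left out. *STC2* (−0.81) and *NUPR1* (−0.57) were called too, but *STC2* was lost without any 1 array other than the second DMSO array (adjusted p 0.0687 to 0.114). The PD98059 values of *STC2*, 3.67, 3.50 and 3.37, also lay below the background level of log2 3.72. *NUPR1* was lost without the first or second DMSO array or the second PD98059 array (0.0508 to 0.065). Fits without 1 array called 5 or 6 genes of the arm. *ATF4* itself had 10.43, 10.18 and 10.37 with PD98059, against 10.66, 10.69 and 10.77 with DMSO, which did not overlap yet missed the FDR (−0.38, SE 0.086, adjusted p = 0.0612). *NFE2L2*, another factor that PERK acts on, had 0.04. The arm's genes are also targets of other kinases that phosphorylate eIF2α, and these arrays do not tell PERK from them.

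Among 18 genes listed as other regulators of the response, 2 were called lower and 1 higher (all clusters: 1.78% and 0.909%), with a median of −0.02. The list also holds *EIF2AK1*, *EIF2AK2* and *EIF2AK4*, which encode the other kinases of eIF2α and are not particular to the response. None of these kinase genes passed the FDR. The 2 genes called lower encode membrane-bound transcription factors that are cut in the Golgi in the manner of ATF6. *CREB3L1* had 7.95, 7.91 and 8.01 with PD98059, against 8.92, 8.90 and 8.89 with DMSO, and fell by 0.95 (SE 0.063, adjusted p = 0.00193), and *CREB3* fell by 0.67 (adjusted p = 0.00477). Both calls were kept without any 1 array. *MAP3K5*, the kinase ASK1, was called higher at 0.59 (adjusted p = 0.0281), a call lost without any 1 array other than the first PD98059 array (0.0725 to 0.105). *TMBIM6* (−0.02) and the *XBP1* ligase gene *RTCB* (−0.26, adjusted p = 0.0940) did not pass.

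**Figure D4:**
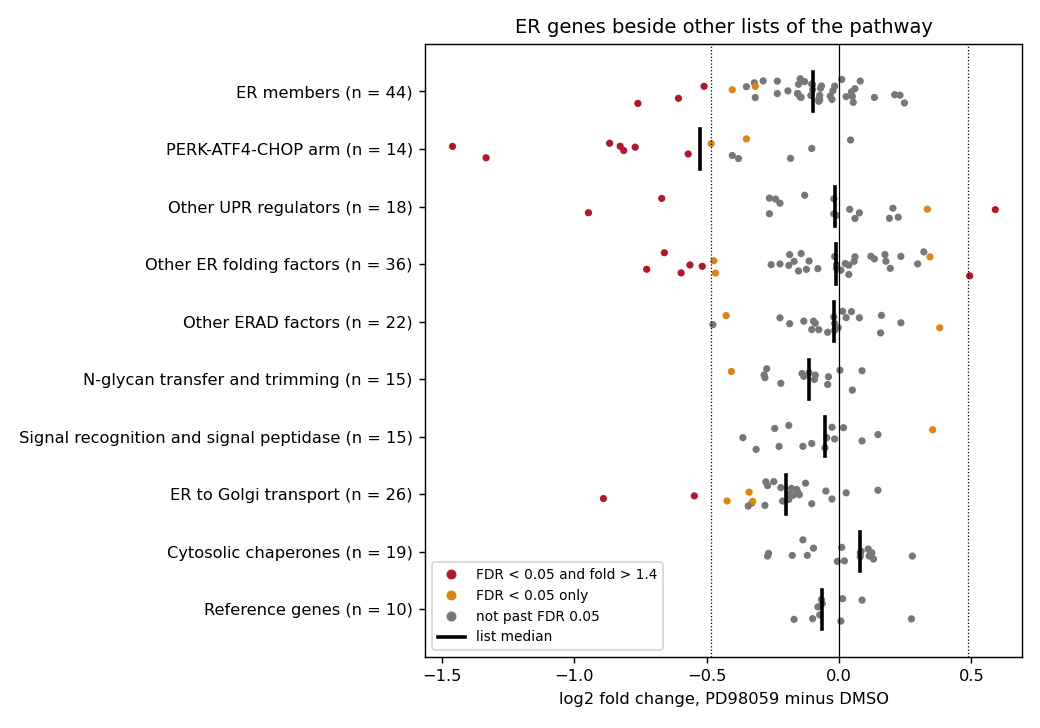
Log2 fold change (PD98059 minus DMSO, x axis) of each gene of the ER set and of 9 other lists, 1 dot per gene with a vertical offset for visibility, a black bar at the list median and dotted lines at a fold of 1.4. The PERK arm has the lowest median, −0.53, and the ER set lies at −0.10. The list labelled cytosolic chaperones, which also holds mitochondrial chaperones and *HSF1*, lies at 0.08.

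Of 36 further ER folding factors, 5 were called lower and 1 higher (all clusters: 1.78% and 0.909%), at a median of −0.01. *FKBP10* (8.49, 8.41 and 8.54 with PD98059, against 9.22, 9.14 and 9.26 with DMSO) fell by 0.73 (SE 0.071, adjusted p = 0.00477), and *FKBP7* fell by 0.66 (adjusted p = 0.00641). Like *FKBP14*, both encode prolyl isomerases of the ER, and *FKBP9*, a further one, had −0.08 with overlap. *RCN3*, a calcium-binding ER protein, fell by 0.56 (adjusted p = 0.00814). The remaining calls, *DNAJC1* (−0.60) and *GPX8* (−0.52) on the lower side and *DNAJC25* (0.49) on the higher side, were each lost in 5 of the 6 fits without 1 array. The fit without the first PD98059 array kept *DNAJC1* and *GPX8* (lost elsewhere at adjusted p 0.0682 to 0.0918), and that without the second DMSO array kept *DNAJC25* (lost elsewhere at 0.0618 to 0.0686). With 1 array left out, 3 genes were called lower in each fit but that without the first PD98059 array, where 6 were. *SERPINH1*, the collagen chaperone, had −0.17.

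In the list labelled ER to Golgi transport, 2 of 26 genes were called lower and none higher (all clusters: 1.78% and 0.909%). The median was −0.20, and 24 genes lay below 0. This list also holds genes of the return path to the ER, *KDELR1*, *KDELR2*, *KDELR3* and those of the COPI coat, such as *COPA* and *ARCN1*. Its counts therefore do not speak to export alone. *KDELR3*, a receptor that returns chaperones such as BiP to the ER, had 8.84, 8.43 and 8.60 with PD98059, against 9.51, 9.53 and 9.50 with DMSO, and fell by 0.89 (SE 0.11, adjusted p = 0.00934). *SEC24D*, a cargo subunit of the COPII coat, fell by 0.55 (adjusted p = 0.00935). Both calls were lost without the first DMSO array (adjusted p = 0.0522 for *KDELR3* and 0.0531 for *SEC24D*), and that of *KDELR3* also in the unmoderated test (0.0540). At an unadjusted p under 0.05, 16 genes of this list were lower and none was higher, against 10.2% and 9.47% of all clusters.

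Other lists held no call in limma or in the unmoderated test. With limma's FDR alone, *UBE2J1* (−0.43, adjusted p = 0.0413) and *OSTC* (−0.41, 0.0176) were lower. On the higher side were *MARCHF6* (0.38, 0.0367) and *SEC11A* (0.35, 0.0332). Of all clusters, 2.82% were lower and 1.72% higher with the FDR alone. Of 22 further ERAD factors, 4 were lower and 3 higher at an unadjusted p under 0.05, around a median of −0.02 (all clusters at that p: 10.2% lower and 9.47% higher), with *VCP*, the gene of p97, at 0.05. Of 15 genes of N-glycan transfer and trimming, 5 were lower and none higher (median −0.11). Another list of 15 joined signal recognition and the signal peptidase with the translocon genes *SEC61A2*, *SSR2*, *SSR4*, *TRAM1* and *TRAM2*. In it 5 genes were lower, *SSR2* (−0.19) and *TRAM1* (−0.24) among them, and 1 was higher (median −0.05). A list of 19 genes outside the ER, mostly cytosolic chaperones, had a median of 0.08, with 3 lower and none higher at that p. It also holds the mitochondrial *HSPA9*, *HSPD1* and *HSPE1* and the transcription factor *HSF1*, which was 1 of the 3 lower genes (−0.27). *HSPA8*, the constitutive cytosolic Hsp70, had 0.08. The 10 reference genes had a median of −0.07 and ran from −0.17 (*TBP*) to 0.27 (*PGK1*), each of these 2 with its groups apart. None passed the FDR, and *TUBA1A* was near background.

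Markers of cell types moved in the same cultures. The mean log2 level of the 12 granulosa markers was 8.75 to 8.79 on the PD98059 arrays and 8.02 to 8.10 on the DMSO arrays. Among 13 fibroblast and smooth muscle markers, 4 were called lower and none higher (all clusters: 1.78% and 0.909%), *PDGFRB* (−0.81), *TAGLN* (−0.77), *CNN1* (−0.66, lost without any 1 array, adjusted p 0.0530 to 0.130) and *PDGFRA* (−0.59), while *LUM* had −0.17 and *POSTN* −0.03. In this list *MYH11* (0.62, adjusted p = 0.0694) and *COL3A1* (0.20, adjusted p = 0.273) had their PD98059 arrays above their DMSO arrays. The mean level of the 13 markers was 7.43 to 7.50 on the PD98059 arrays and 7.67 to 7.74 on the DMSO arrays, and none was near background. Of the 5 theca markers, *INSL3* was called higher (0.61, all clusters: 0.909%), and *CYP17A1* and *GLI1* were near background. *PTCH1* was higher with the FDR alone (0.39, limma adjusted p = 0.0258, all clusters: 1.72%), and *LHCGR* had 0.17 (adjusted p = 0.344). Of 6 endothelial markers, *VWF* was called lower (−0.57, lost without any 1 array other than the second DMSO array, adjusted p 0.0691 to 0.109) and 4 were near background, among them *PECAM1*. None of the 9 leukocyte, 4 red cell or 7 oocyte markers was called by limma or the unmoderated test on all 6 arrays, and 1 in each list was higher at an unadjusted p under 0.05. In bulk cultures, fewer cells of a type and less RNA per cell cannot be told apart, and the part of these markers in the values of *FKBP11*, *FKBP14*, *SYVN1* and the lists above was not tested.

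**Figure D5:**
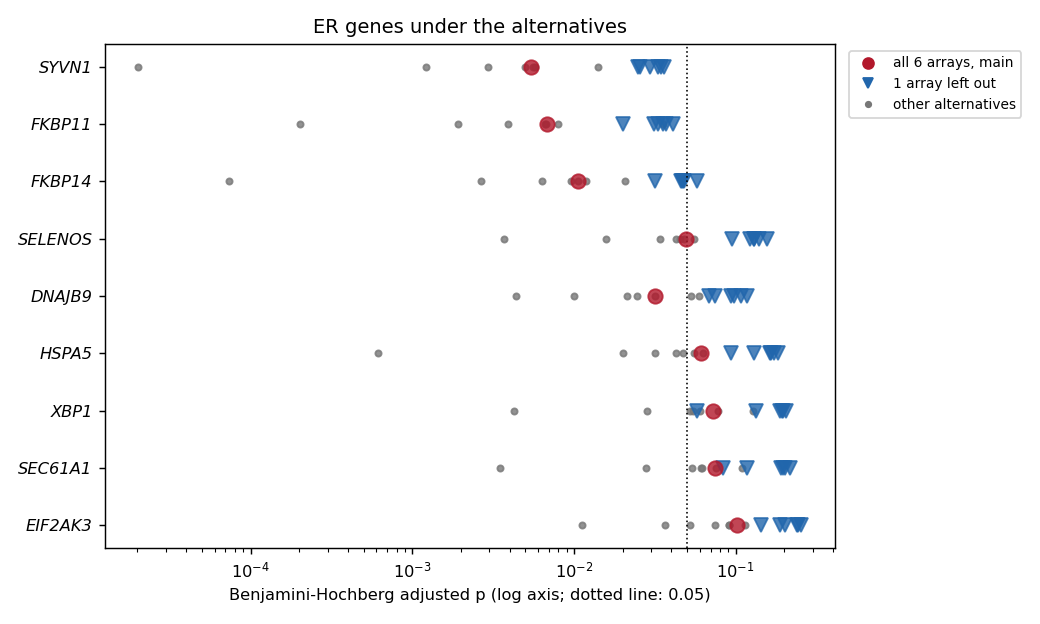
Benjamini-Hochberg adjusted p (log x axis, dotted line at 0.05) of 9 ER genes with all 6 arrays (red), with 1 array left out (blue triangles) and under alternatives of scaling, filter, variance model, array weights, test and gene summary (grey), with the fit that takes the replicate number as a block not drawn. Among the fits drawn, *SYVN1* and *FKBP11* stay left of the line and *FKBP14* crosses it without the first DMSO array. *DNAJB9* and *SELENOS* lie right of it whenever 1 array is left out and after repeated quantile normalization, and *DNAJB9* also in the unmoderated test.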

How the data were processed

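Total RNA of 6 granulosa cell cultures, 3 treated with PD98059 and 3 with DMSO, was hybridized to GeneChip Bovine Gene 1.0 ST arrays. Background reduction, normalization and the gene-level summary by Robust Multichip Average (RMA) were done by the authors in Expression Console, and the deposited table holds log2 values to 2 decimals. The series' own value table was equal in all 146490 values. Columns were matched to samples by name, and the genome build behind the annotation was taken as not given in the sources used here.

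Clusters were named through RefSeq accessions (ARS-UCD2.0 table, 16055 clusters) or else by a single symbol (3632 clusters). The brightest cluster stood for a gene. Background was set at percentile 95 of 377 olfactory receptor clusters. Precision is limited by how many arrays there are (median SE of a log2 fold change 0.098).

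All 24415 clusters were fitted with limma 3.58.1 (lmFit, eBayes) in R 4.3.3 with treatment as the only factor, and p-values were two-sided and adjusted by Benjamini-Hochberg over all clusters. Calls required both an FDR under 0.05 and a fold over 1.4, as in the study. The code of the fit was checked on simulated data, and its recovery of changes near the fold limit is not reported here. Python 3.11.15 with scipy 1.17.1, numpy 2.4.6 and pandas 2.3.3 made the tables. An unmoderated equal-variance test per cluster, which equals a one-way ANOVA of both groups, was used only as an alternative and adjusted in the same way.

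The members and lists were chosen with earlier results of these data known. Values on all arrays are given for members with adjusted p under 0.05, for the member with the highest mean in each role group and for the sensors. Values shown for other members were chosen after they had been seen. From other lists, at most 4 calls, largest first, and at most 2 uncalled genes, brightest first, were named by rule. Further calls and further uncalled genes were named after their values had been seen. Alternatives were median centring, repeated quantile normalization, a background filter, a variance trend, array weights, the unmoderated test, other fold limits, a replicate block, averaging the clusters that read 1 gene, and fits without 1 of the arrays. The other experiments of the study are not analysed here.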

Additional observations from a re-analysis of the deposited data

How the results depend on the processing

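The count of ER genes called higher with PD98059 was 0 under all 16 alternatives, and the count called lower was 3 under 11 of them. It was 5 with the FDR alone and 5 with a fold above 1.2, where *DNAJB9* and *SELENOS* were added. Leaving out 1 array gave 2 to 3, and the median log2 fold change then ran from −0.12 to −0.08, while it was −0.13 when each array was centred on its median, a step that moved the median of all clusters to −0.02. With the FDR alone, the filter on dim clusters called 9 ER genes (*HSPA5*, *XBP1*, *EIF2AK3* and *SEC61A1* added) and a variance trend 11 lower and 1 higher (*OS9*). The causes were not tested.

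With the replicate number as a block, 1 ER gene was called, *SYVN1* (adjusted p = 0.0470), and *FKBP11* (0.0568) and *FKBP14* (0.0605) were not, while calls over all clusters numbered 237 with the block and 656 without it. The numbers were not taken to pair the cultures: same-numbered cultures correlated at 0.0698, 0.0278 and 0.0546 in their deviations, and although each correlated best with its own number, that is a hint from the data and not from the design. The block also ended the calls of *FKBP7*, *RCN3*, *PDGFRA*, *INSL3*, *KDELR3*, *SEC24D*, *STC2*, *NUPR1*, *MAP3K5*, *DNAJC1*, *DNAJC25*, *GPX8*, *CNN1* and *VWF*. With it, 0 genes of the list labelled ER to Golgi transport, 1 other folding factor, 5 genes of the PERK arm and 2 fibroblast and smooth muscle markers were called lower, and 4 granulosa markers higher. Calls over all clusters were 350 with the unmoderated test and 271 to 491 with 1 array left out. With the FDR alone they were 1110, against 2007 after the filter and 2393 with the trend.

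Of 704 values of single ER genes under the alternatives, 687 kept their direction and side of the threshold and 9 changed sign, in 5 genes. The background filter, variance trend, unmoderated test, block, cluster averaging and other limits leave a member's log2 fold change as it was. Under these the sign could not change, and 41 of the 44 genes were uncalled in the main fit to begin with. The tally is therefore no measure of robustness. *SEL1L* (−0.023) and *EDEM1* (−0.0067) turned negative with median centring, and *CRELD2* (0.020) positive with repeated quantile normalization. With 1 array left out, *SEL1L* ran from −0.030 to 0.040, *EDEM1* from −0.020 to 0.065, *CRELD2* from −0.052 to 0.038, *ERO1B* from −0.058 to 0.12 and *SSR3* from −0.047 to 0.0083. Signal was no limit for the members, all of which lay above background, but 3 arrays a group leave a difference of the size of the median SE, 0.098, undetected.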
